A study of Mus musculus with 4 samples.

Results

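The comparison described here set primary colonic epithelial cells of Stat4-/- mice against those of wild-type mice, both cultured without leukemia inhibitory factor (LIF). It used 2 of the 4 libraries of the study, 1 for each genotype. Genes entered when their mean over the 4 libraries reached 1 FPKM (sequenced fragments scaled to transcript length and sequencing depth), which 12274 of 17604 listed genes did. For each, the difference was log2(FPKM + 1) in Stat4-/- minus log2(FPKM + 1) in wild type, so that positive values are higher in Stat4-/-. With a single library on each side there is no replicate error and no test, and sizes and gene groups are given as descriptions of these libraries.

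All mice were labelled C57BL/6. Cells isolated from the colon were plated on Matrigel in medium with serum and insulin and had 24 h to attach before loose material was washed off. Control wells received no LIF, and the other pair of libraries, 1 per genotype, came from cells given 20 ng/ml LIF for a time that the labels do not give for a sample. The Stat4 allele is described only as Stat4-/-, and age, sex and number of mice behind a library are not stated in the labels. That LIF pair shares no library with the control pair, and its values stand beside those of the control pair as a second measurement of the genotype difference under another treatment. Whether libraries of 1 genotype came from the same mice is not stated.

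STAT4 is a transcription factor that is phosphorylated at cytokine receptors, best known downstream of interleukin-12 in T and natural killer cells, where it drives production of interferon gamma. Interferons act on epithelium through other members of the family, which bind GAS elements after interferon gamma and, together with IRF9, interferon-stimulated response elements (ISRE) after type I and type III interferon. Their targets include guanylate-binding proteins, immunity-related GTPases, antiviral effectors and the proteins that cut, transport and present peptides on MHC class I. In the colon, epithelial cells divide their work between absorptive colonocytes with a brush border, mucus-secreting goblet cells and hormone-secreting enteroendocrine cells.

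Stat4 itself (ENSMUSG00000062939; chromosome 1, 51987148 to 52107189 in mm10, plus strand) stood at 19.7 FPKM in wild-type and 2.01 FPKM in Stat4-/- cells without LIF, and at 20.5 and 2.98 FPKM in the LIF pair. The targeted gene was thus low in both Stat4-/- libraries, though not at 0. The libraries differed in more than the label. The Y-linked genes Eif2s3y (6.68 FPKM in wild-type control, 0.02 in Stat4-/- control), Ddx3y (5.86 and 0.05) and, under the 1 FPKM limit, Kdm5d (1.96 and 0) and Uty (1.45 and 0.01) were near or at 0 in both Stat4-/- libraries. Ren2, a renin gene that C57BL/6 mice are known to lack, stood at 2.77 and 2.26 FPKM in the wild-type libraries and 0.04 and 0.03 FPKM in the Stat4-/- libraries, so the wild-type libraries go against their strain label at this gene. Zhx2, a transcriptional repressor known to be weakly expressed in the BALB/cJ substrain, was at 0.37 and 0.25 FPKM in wild type and at 7.77 and 7.62 FPKM in Stat4-/-. H2-L, an MHC class I gene that C57BL/6 mice are known to lack, was listed in all 4 libraries, from 115 to 704 FPKM. Of 4 genes compared in a list for X-linked dosage, 1 was above 0, with a median of -0.03 (0.03 in the LIF pair). Whether the mice differed in sex or genetic background was not tested. Stat4 genotype, the Y-linked difference and any difference in background run together in these libraries and cannot be told apart in any result below.

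Between the control libraries, 39 genes were at least 2-fold higher in Stat4-/- (0.318% of genes compared) and 35 at least 2-fold lower (0.285%). At 1.5-fold there were 199 higher (1.62%) and 195 lower (1.59%). The median over all genes was -0.01 with an SD across genes of 0.27, so most genes lay close together in both libraries. In the LIF pair, 36 genes were at least 2-fold higher in Stat4-/- (0.293%) and 56 lower (0.456%), and 197 (1.61%) and 270 (2.2%) passed 1.5-fold. Libraries of the same genotype, which differ in LIF, were closer: 8 genes were 2-fold higher with LIF and 8 lower in wild type (0.0652% each), and 8 higher (0.0652%) and 7 lower (0.057%) in Stat4-/-. Depth, estimated from the smallest steps of the FPKM values, came to 24.1 M (mega) fragments in wild-type and 22.9 M in Stat4-/- control, so that 1 fragment on a transcript of 2 kb was worth about 0.021 and 0.022 FPKM.

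Of the 39 genes 2-fold higher without LIF, 35 were also above 0 in the LIF pair and 14 were 2-fold higher there (35.9% of the 39 and 38.9% of the 36). Of the 35 lower genes, 30 were also below 0 in the LIF pair and 20 were 2-fold lower there (57.1% of the 35 and 35.7% of the 56). Across the 12274 genes, which share annotation and are not independent, the genotype differences of both pairs were correlated (Pearson 0.609, Spearman 0.527), and the sign matched in 68.8% of genes. Low expression and near-identical copies made up part of the 2-fold genes. Of all 74, 35 had a mean under 5 FPKM, and 18 had over 50% of their 31-base words in common with other genes, so that reads could be split between copies. For 6 of the 74, sharing could not be measured because no transcript sequence was matched. With a mean of at least 5 FPKM, 23 higher and 16 lower genes were left. Gm21002 and Gm14850 are examples of single-library values: they were at 12.4 and 5.09 FPKM in wild-type control and listed at 0 in the other 3 libraries. Their sharing is among those not measured, and both lie on chromosome 8 near Defa20. So does Gm15308, also unmeasured, which was listed at 0 in wild-type control and 9.72 FPKM in Stat4-/- control. Whether reads were split between these genes was not tested.

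**Figure D1:**
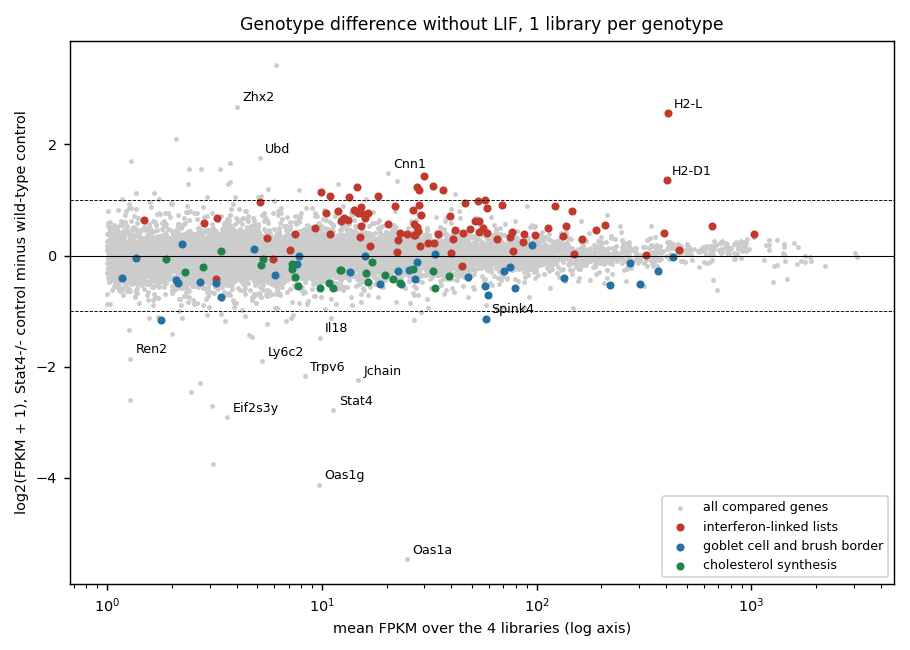
Genotype difference without LIF, log2(FPKM + 1) in Stat4-/- minus wild type, against mean FPKM over the 4 libraries on a log axis; each point is 1 of 12274 genes and the dashed lines mark 2-fold. Members of interferon-linked lists lie mostly above 0, while goblet cell, brush border and cholesterol synthesis genes lie mostly below.

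**Figure D2:**
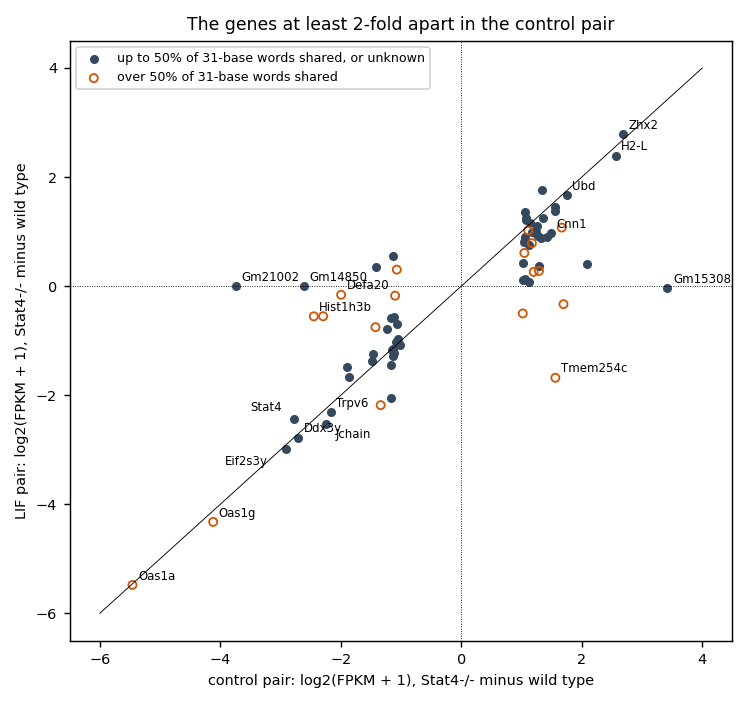
The 74 genes at least 2-fold apart without LIF, with the difference in the control pair on the horizontal axis and in the LIF pair on the vertical axis, both in log2(FPKM + 1); the line marks equal values and open circles have over 50% of their 31-base words in common with other genes. Stat4, Jchain, Trpv6, H2-L and Zhx2 lie near the line, whereas several open circles and Gm21002, Gm14850 and Gm15308 do not. Filled points include 6 genes whose shared words were not measured: Gm21002, Gm14850, Gm15308, Gm8923, H2-L and Ren2.

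The broadest group that was higher in Stat4-/- without LIF was made mostly of genes known to be induced by interferon. It was described over 5 lists: antiviral genes, guanylate-binding proteins, immunity-related GTPases, MHC class I, and immunoproteasome with peptide loading. Of 93 genes compared in them, 90 were above 0, with a median of 0.52. The 5 lists were chosen with earlier results of these data known, and the OAS genes were kept apart. The counts therefore describe the lists chosen and are no test. The 90 include general chaperones of the last list that were nearly level: Calr (0.09), Canx (0.03) and Pdia3 (0.02). Of the 93, 41 passed 1.5-fold and 12 passed 2-fold, all of them higher, beside 1.62% and 0.318% of all genes. The 3 below 0 were Gvin1, which shares 99.5% of its words with other genes, H2-Q6 and H2-T10. With the 8 OAS genes compared added, 95 of 101 were above 0 with a median of 0.50, and 2, Oas1a and Oas1g, were 2-fold lower. With median-of-ratios or upper-quartile scaling the library factors ran from 0.993 to 1.006, and no median of these 5 lists moved by more than 0.01.

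Guanylate-binding proteins, large GTPases that attack the vacuoles and membranes of intracellular pathogens, had the highest median of any list with at least 4 genes compared, 0.98 without LIF and 1.02 in the LIF pair. All 10 compared were above 0 and all 10 passed 1.5-fold in the control pair, beside 1.62% of all genes compared. Gbp2 (chromosome 3, 142620602 to 142638008) was at 17.2 FPKM in wild-type control and 42.3 in Stat4-/- control, and at 22.7 and 50.1 FPKM in the LIF pair, a difference of 1.25 and 1.11. Its neighbour Gbp2b was at 14.5 and 35.6 FPKM and, with LIF, 20.1 and 41.0 FPKM. For both genes each Stat4-/- library lay above each wild-type library. Gbp3 (31.3 and 63.0 FPKM; 38.7 and 80.9 with LIF), Gbp4 (6.25 and 14.3; 6.53 and 16.5) and Gbp5 (5.38 and 13.1; 6.16 and 15.04) had the same order. Gbp5 is known to promote inflammasome assembly. Gbp7 had the lowest value of the 10, at 9.31 and 15.03 FPKM without LIF, and Gbp11 stayed under the 1 FPKM limit (0.02 and 0.55 FPKM). Gbp6 and Gbp10 share 57.9 and 85% of their words, so their split is uncertain.

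Immunity-related GTPases, a second family of vacuole-directed GTPases, had a median of 0.67 without LIF and 0.79 with it, and 7 of 8 were above 0. Igtp (chromosome 11, 58199556 to 58207591) was at 19.5 and 45.6 FPKM without LIF and 26.6 and 53.9 FPKM with it. Iigp1 was at 9.30 and 20.6 FPKM, then 11.5 and 31.3 FPKM. Irgm1, a regulator that guards host membranes against the effector members, was at 43.5 and 61.7 FPKM, a smaller difference of 0.50. The duplicated genes Tgtp1 and Tgtp2 share 84.4 and 90.5% of their words.

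Antiviral genes other than the OAS family, which is described separately, were higher by less. All 42 compared were above 0 without LIF, with a median of 0.47 and a range of 0.04 to 1.17, and 41 were above 0 in the LIF pair (median 0.48). Of the 42, 16 passed 1.5-fold and 1 passed 2-fold, beside 1.62% and 0.318% of all genes compared. The gene past 2-fold was Ifit3b (16.3 and 37.98 FPKM), which shares 55.2% of its words. Ifit3, an RNA-binding effector, was at 26.8 and 52.3 FPKM without LIF and 32.95 and 72.8 FPKM with it, and shares 61.8%. Zbp1, a sensor of Z-form nucleic acid, was at 42.5 and 81.0 FPKM, and Rsad2, which makes a chain-terminating nucleotide, at 13.4 and 25.6 FPKM. Isg15, a ubiquitin-like modifier, was at 96.0 and 167 FPKM, and Ifit1 at 37.1 and 67.8 FPKM. The transcription factors in the list lay on both sides of its median: Stat2 was at 30.1 and 39.6 FPKM (0.38), Irf9 at 56.0 and 69.4 FPKM (0.31), Irf1 at 48.2 and 64.5 FPKM (0.41), Irf7 at 90.8 and 128 FPKM (0.49) and Irf8 at 9.85 and 17.4 FPKM (0.76). The cytosolic RNA sensors ranged from Ifih1 at 26.6 and 30.2 FPKM (0.18) through Ddx58 at 23.2 and 30.1 FPKM (0.36) to Dhx58 at 8.90 and 14.8 FPKM (0.68).

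**Figure D3:**
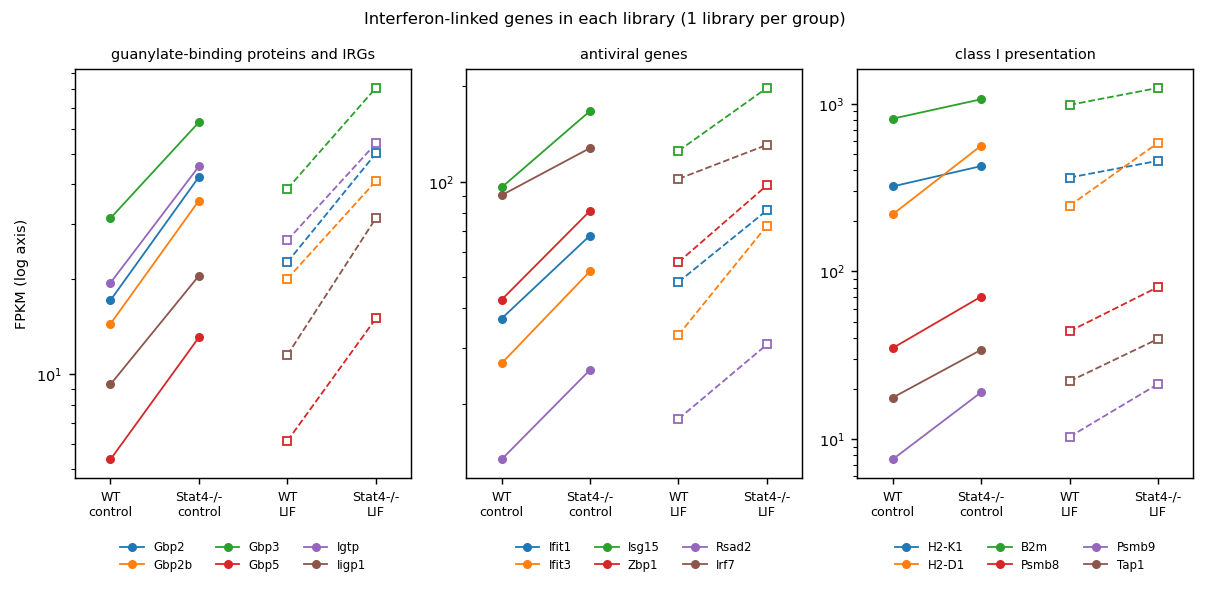
FPKM (log axis) of 18 interferon-linked genes in each of the 4 libraries, wild type (WT) and Stat4-/- joined by solid lines for control and dashed lines for LIF; each point is 1 library. Every gene drawn, picked with values known, is higher in the Stat4-/- library of its pair. Without LIF they run from Gbp5 at 5.38 and 13.1 FPKM to B2m at 815 and 1064 FPKM. Of the lists they come from, Gvin1, H2-Q6 and H2-T10 were below 0 without LIF.

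Promoter sequence is shown for 4 members of the 5 lists and for the interferon-induced chemokine gene Cxcl10, 4 with a motif match and 1, Psmb9, without. RefSeq promoters (GRCm38.p6; 250 bases before to 50 after the start) matched 9448 of the 12274 genes. They were searched on both strands for an ISRE core, GAAANNGAA, and for GAS, TTCNNNGAA, which can overlap each other. Matches are in capitals, and a run that begins TTC and ends TTTC is the ISRE core read on the other strand. Gbp2 lies at chr3:142620413-142620712 (plus strand), Igtp at chr11:58199306-58199605 (plus), Ifit3 at chr19:34583279-34583578 (plus), Psmb9 at chr17:34187281-34187580 (minus) and Cxcl10 at chr5:92348840-92349139 (minus).
Gbp2: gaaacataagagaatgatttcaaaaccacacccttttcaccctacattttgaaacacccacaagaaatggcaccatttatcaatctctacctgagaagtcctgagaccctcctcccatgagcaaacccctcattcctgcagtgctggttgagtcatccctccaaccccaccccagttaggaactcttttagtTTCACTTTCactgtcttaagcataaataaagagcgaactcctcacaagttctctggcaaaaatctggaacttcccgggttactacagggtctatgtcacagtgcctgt
Igtp: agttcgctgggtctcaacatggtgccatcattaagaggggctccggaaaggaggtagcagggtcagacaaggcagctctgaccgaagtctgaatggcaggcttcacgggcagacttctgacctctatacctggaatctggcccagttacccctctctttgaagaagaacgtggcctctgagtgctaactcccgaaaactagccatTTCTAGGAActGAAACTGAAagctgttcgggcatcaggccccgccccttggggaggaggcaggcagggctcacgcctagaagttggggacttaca
Ifit3: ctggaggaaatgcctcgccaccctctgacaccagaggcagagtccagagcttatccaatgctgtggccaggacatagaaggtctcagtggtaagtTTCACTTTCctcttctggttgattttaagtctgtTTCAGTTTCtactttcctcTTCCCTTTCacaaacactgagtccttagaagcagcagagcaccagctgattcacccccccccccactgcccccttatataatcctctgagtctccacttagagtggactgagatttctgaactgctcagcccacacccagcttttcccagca
Psmb9: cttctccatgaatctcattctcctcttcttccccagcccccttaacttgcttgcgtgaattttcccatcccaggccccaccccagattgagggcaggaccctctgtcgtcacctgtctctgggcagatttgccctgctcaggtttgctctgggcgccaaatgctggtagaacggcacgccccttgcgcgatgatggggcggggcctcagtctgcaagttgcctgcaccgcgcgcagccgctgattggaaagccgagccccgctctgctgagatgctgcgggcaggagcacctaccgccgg
Cxcl10: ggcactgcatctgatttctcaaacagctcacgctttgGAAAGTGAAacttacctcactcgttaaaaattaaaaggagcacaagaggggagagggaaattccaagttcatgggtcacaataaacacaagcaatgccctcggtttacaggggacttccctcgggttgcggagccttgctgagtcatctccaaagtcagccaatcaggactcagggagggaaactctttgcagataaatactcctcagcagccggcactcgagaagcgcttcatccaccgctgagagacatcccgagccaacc

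Gbp2 held 1 ISRE core, which begins 58 bases before the start (position -58). Igtp held 1 ISRE core at -34 and 1 GAS match at -45, Ifit3 held 3 ISRE cores at -155, -121 and -102, and Cxcl10 held 1 at -213. Psmb9, 2-fold higher in Stat4-/- without LIF, held 0 matches of either motif in this window. For lists, only members with a matched promoter were counted, so not every gene compared is covered. The ISRE core was found in 5 of 5 guanylate-binding protein promoters (10 genes compared), 5 of 6 of immunity-related GTPases (8) and 17 of 31 of antiviral genes (42). It was found in 2 of 11 of the immunoproteasome and peptide loading list (14) and 3 of 12 of MHC class I (19). Of all 27025 genes with a promoter, 9.76% held it, and of the genes compared, 8.66%. Among genes at least 1.5-fold higher in Stat4-/- without LIF it was present in 32 of 137 (23.4%), and among those at least 1.5-fold lower in 13 of 147 (8.84%). GAS was present in 10.95% of the higher, 8.84% of the lower and 8.46% of all genes compared. A match describes letters in this window and is not evidence of binding.

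In the immunoproteasome and peptide loading list, all 14 were above 0, with a median of 0.45. Psmb9 (chromosome 17, 34181987 to 34187764), a catalytic subunit that replaces a constitutive one, was at 7.55 FPKM in wild-type control and 19.0 in Stat4-/- control, and 10.3 and 21.3 FPKM with LIF. The other replacing subunits had the same order, with Psmb8 at 34.8 and 70.7 FPKM and Psmb10 at 37.2 and 58.1 FPKM. The peptide transporter genes Tap1 (17.6 and 34.0 FPKM) and Tap2 (18.5 and 33.5 FPKM) and the class I transactivator gene Nlrc5 (2.16 and 4.02 FPKM) followed. The trimming peptidase gene Erap1 and the general chaperones of the same list were nearly level: Erap1 was at 20.7 and 21.8 FPKM, Pdia3 at 315 and 319 FPKM and Canx at 149 and 152 FPKM. The constitutive proteasome list, as a comparison, had a median of 0.12, with 18 of 20 above 0 and 0 at 1.5-fold.

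Among class I heavy chains and B2m, 17 of 19 were above 0 with a median of 0.41. H2-K1 was at 321 and 425 FPKM without LIF and 363 and 457 FPKM with it, and the shared light chain B2m at 815 and 1064 FPKM, then 984 and 1243 FPKM. H2-D1 stood further apart, at 219 and 562 FPKM and, with LIF, 246 and 585 FPKM. H2-L was at 115 and 685 FPKM, then 133 and 704 FPKM, the highest ranked gene with a mean of at least 5 FPKM. GENCODE M21 gives no position or transcript for H2-L, so how far it shares reads with H2-D1 could not be measured. Their sum went from 334 FPKM in wild type to 1246 FPKM in Stat4-/-, a ratio of 3.73, and 3.39 in the LIF pair. H2-Q7 was at 13.3 and 37.6 FPKM, whereas H2-Q6, which shares 49.2% of its words, was at 34.4 and 30.0 FPKM. Because class I genes differ between mouse strains in sequence and number, values of single heavy chains carry that uncertainty. A window on chromosome 17 between 33000000 and 38000000, around the class I and II genes, was set with values known. Of 136 genes compared there, 6 were 2-fold higher (4.41%), beside 0.318% of all genes compared. They were H2-D1, H2-Q7, H2-DMb2, Psmb9, Ubd and Hspa1a, each also described by itself in the text. In the window 0 were 2-fold lower, and the median was 0.13.

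MHC class II genes, which present to helper T cells, were all above 0 (8 of 8 compared, median 0.43; 0.58 with LIF). H2-Aa was at 12.0 and 18.4 FPKM, H2-Ab1 at 11.3 and 15.4 FPKM, and Cd74, the invariant chain, at 35.3 and 44.8 FPKM. Only H2-DMb2 passed 2-fold, at 0.47 and 3.32 FPKM without LIF and 1.16 and 4.63 FPKM with it. Their transactivator Ciita was under the limit (0.32 and 0.41 FPKM).

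Transcripts of the OAS family, which make the 2′-5′ oligoadenylates that activate RNase L, split. Oas1a (chromosome 5, 120896256 to 120907521) was at 48.7 and 50.3 FPKM in the wild-type libraries and 0.13 and 0.15 FPKM in the Stat4-/- libraries. Oas1g (chromosome 5, 120876142 to 120887613) was at 17.8 and 20.9 FPKM and 0.08 and 0.09 FPKM. Oas1b was at 6.25 and 3.33 FPKM without LIF. The members outside the Oas1 group were higher in Stat4-/-: Oas2 (4.06 and 5.97 FPKM), Oas3 (12.2 and 18.6 FPKM) and Oasl2 (57.3 and 85.4 FPKM). Oas1a and Oas1g share 68.8 and 55.1% of their words, and both were near 0 in Stat4-/-. With Oas1a and Oas1g among its 8 genes, the list had a median of 0.22 without LIF and -0.00 with it.

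Chemokines that attract T cells and neutrophils were also higher. In the CXC list, which also holds the granulocyte factor Csf3, 9 of 11 were above 0 with a median of 0.61 (0.57 with LIF). Cxcl10 (chromosome 5, 92346638 to 92348889), an interferon-induced attractant of T cells, was at 10.99 and 29.2 FPKM without LIF and 10.6 and 38.3 FPKM with it. Cxcl11, which shares its receptor, was at 1.38 and 4.94 FPKM, and Cxcl9 at 0.80 and 1.77 FPKM. The neutrophil attractants Cxcl1 (248.8 and 358.1 FPKM), Cxcl2 (111 and 173 FPKM) and Cxcl5 (57.2 and 88.0 FPKM) and Csf3 (5.82 and 11.1 FPKM) had the same order. Cxcl12 and Cxcl16 were the 2 below 0, at 58.3 and 50.1 FPKM and 97.0 and 90.7 FPKM. Of 13 CC chemokines, 8 were above 0 (median 0.15). Ccl2, a monocyte attractant, was at 147 and 246 FPKM, and Ccl21a at 3.45 and 9.08 FPKM, while Ccl6 was at 5.07 and 3.07 FPKM. NF-kB subunits and inhibitors differed little, with 16 of 18 above 0, a median of 0.14 and 0 at 1.5-fold. Targets of gp130 and STAT3 had a median of 0.21 (20 of 29 above 0) and 0 at 1.5-fold higher. Saa1, a serum amyloid A gene in that list, was 1.5-fold lower at 57.8 and 34.0 FPKM (68.6 and 31.7 with LIF). Its relative Saa2, outside the list, was at 7.03 and 2.80 FPKM (5.52 and 2.19), and they share 46.8 and 44.5% of their words. Icam1, an adhesion receptor for leukocytes, was at 42.9 and 59.7 FPKM.

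The STAT4 axis showed no common direction. Of 24 genes in that list, 15 were compared, 7 were above 0, and the median was -0.01. The interleukin-12 receptor genes Il12rb1 (0.39 and 1.12 FPKM) and Il12rb2 (0.66 and 1.32 FPKM) and Tbx21, the T-bet gene (0.11 and 0.17 FPKM), were under the 1 FPKM mean. Ifng was listed at 0 in wild-type control and 0.28 FPKM in Stat4-/- control, and at 0.04 and 0 FPKM with LIF. The interferon gamma receptor genes Ifngr1 (97.8 and 87.9 FPKM) and Ifngr2 (39.4 and 36.4 FPKM) were slightly lower, and the kinases Jak2 (25.7 and 25.5 FPKM) and Tyk2 (9.16 and 8.81 FPKM) nearly equal. Il18, a cytokine that acts with interleukin-12 and that colonic epithelium is known to make, was at 14.5 and 4.58 FPKM without LIF and 14.8 and 5.14 FPKM with it, 2-fold lower in both pairs. Its inhibitor Il18bp was at 3.45 and 6.57 FPKM. In the list of interleukin-1 family and inflammasome genes, Il18 was the only one at 2-fold, and the median of 17 genes was 0.01. Nlrp6, an inflammasome sensor of colonic epithelium, was at 3.29 and 1.93 FPKM and Casp1 at 17.6 and 15.6 FPKM. Of the feedback inhibitors, Socs1 was at 4.37 and 7.67 FPKM and Socs3 at 28.7 and 38 FPKM.

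Within 5 Mb of Stat4, 12 of 26 genes compared were above 0 (median -0.01), and within 10 Mb 29 of 74 (median -0.04; 0.02 in the LIF pair). The 45 below 0 within 10 Mb were 60.8%, beside 51.2% of all genes compared. At 1.5-fold, 3 of the 74 were lower and 2 higher, beside 1.59% and 1.62% of all genes compared. In the LIF pair 41 of the 74 were above 0. Without LIF, 1 of the 74 was 2-fold higher and 0 were 2-fold lower, beside 0.318% and 0.285% of all genes compared. The higher gene was 1700019D03Rik (chromosome 1, from 52922324), at 0.75 and 4.13 FPKM without LIF and 1.15 and 4.91 FPKM with it.

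**Figure D4:**
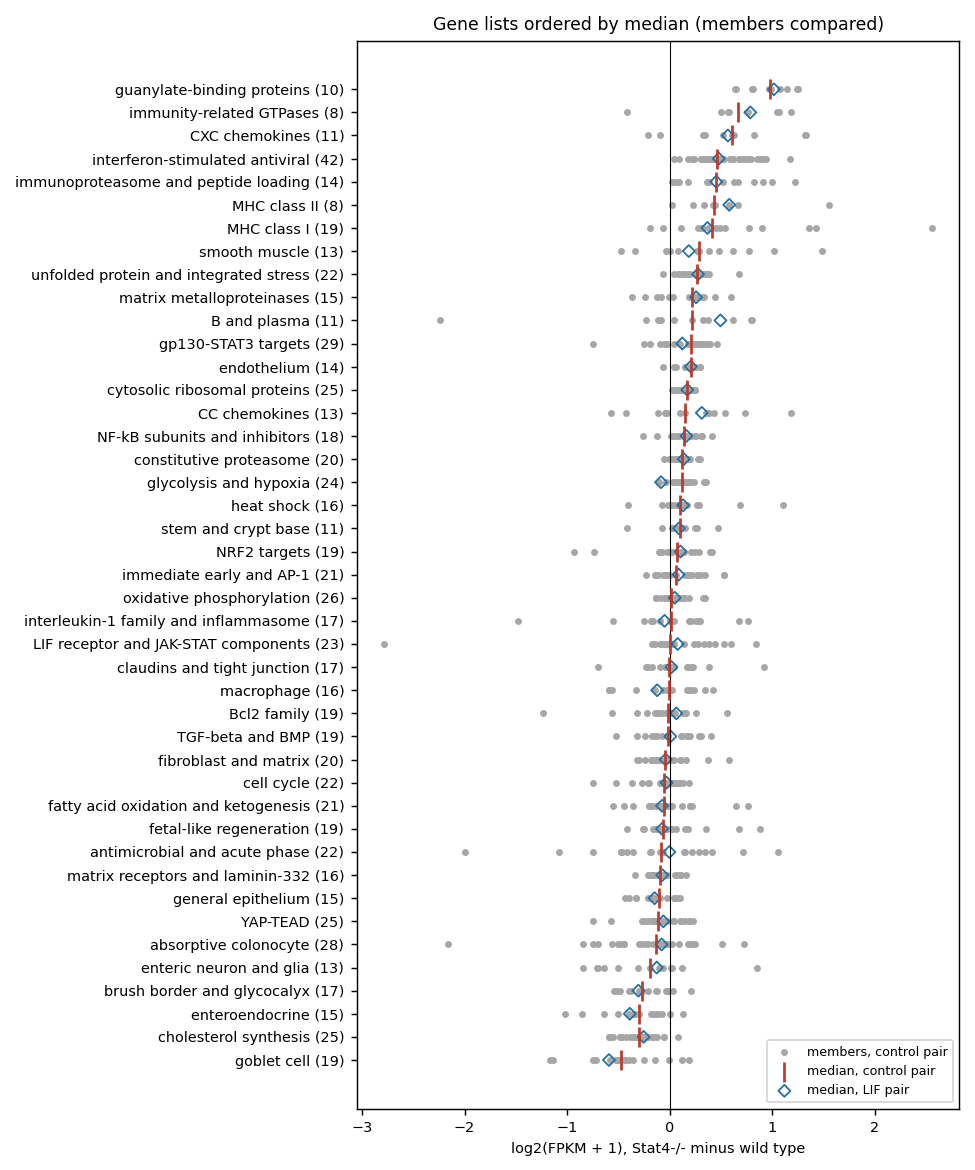
Genotype difference, log2(FPKM + 1) in Stat4-/- minus wild type, for gene lists ordered by their median, with the number of genes compared in parentheses; grey points are genes in the control pair, red bars the median there and blue diamonds the median in the LIF pair. Of the lists drawn, guanylate-binding proteins lie at the top (0.98) and goblet cell genes at the bottom (-0.48). Glycolysis and hypoxia genes differ in sign between the pairs (0.12 and -0.08). Lists not drawn include Y-linked (median -2.81), red blood cell (-0.45), mast cell (-0.42), strain-variable (-0.39) and OAS genes (0.22).

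Goblet cell genes were lower in Stat4-/- without LIF and had the lowest median of the lists plotted. Of 19 compared, 17 were below 0, with a median of -0.48, and in the LIF pair 17 were below 0 with a median of -0.59. Muc2, the gel-forming mucin of the colonic mucus layer, was at 81.0 FPKM in wild-type control and 48.9 in Stat4-/- control, and 68.0 and 39.6 FPKM with LIF. Other secreted products had the same order: Spink4 was at 82.0 and 36.8 FPKM (81.0 and 32.7 with LIF), the trefoil peptide gene Tff3 at 381 and 269 FPKM (350 and 215), the lectin gene Zg16 at 254 and 176 FPKM (296 and 150) and Clca1, a mucus-processing protease, at 104 and 69.2 FPKM (94.6 and 50.6). In each of these 5 genes both Stat4-/- libraries lay below both wild-type libraries. Spink4 and Capn9 (2.91 and 0.74 FPKM) passed 2-fold, and Bcas1 (4.80 and 2.45 FPKM) and Muc2 also passed 1.5-fold, 4 of 19 beside 1.59% of all genes. Atoh1, the transcription factor that specifies secretory cells, was at 2.62 and 1.66 FPKM. Spdef, a factor of goblet cell maturation, was at 4.32 and 4.79 FPKM, and Klk1 at 87.4 and 99.4 FPKM, the 2 above 0. In bulk RNA, fewer cells of a type and less RNA per cell cannot be told apart. The summed level of the list was 1131 and 808 FPKM without LIF and 1123 and 692 FPKM with it.

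Brush border genes were lower by less. Of 17, 15 were below 0, with a median of -0.27 (-0.31 with LIF) and 0 at 1.5-fold. The protocadherin gene Cdhr5, which links microvilli, was at 71.9 and 48.9 FPKM without LIF and 65.8 and 42.3 FPKM with it. The motor gene Myo1a was at 22.7 and 15.6 FPKM, and the actin bundler gene Vil1 at 160 and 121 FPKM. Ezr, which ties membrane to actin, was at 444 and 437 FPKM.

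Absorptive colonocyte genes were more mixed, with 20 of 28 below 0 and a median of -0.13. Trpv6, the apical calcium channel, was 1 of the lowest ranked genes, at 14.2 and 2.38 FPKM without LIF and 14.6 and 2.13 FPKM with it. Slc26a3, the chloride and bicarbonate exchanger, was at 5.57 and 3.05 FPKM (3.91 and 1.87 with LIF), the proton pump gene Atp12a at 60.3 and 40.4 FPKM and the water channel gene Aqp8 at 233 and 165 FPKM. Car1, a carbonic anhydrase of colonocytes, went the other way at 78.7 and 113 FPKM, and Slc9a3, the sodium and proton exchanger, was at 0.67 and 1.77 FPKM. Among markers of epithelium in general, Epcam was at 499 and 468 FPKM, Cdh1 at 338 and 350 FPKM and Krt8 at 3173 and 3119 FPKM. The lowest differences in that list were those of Lgals4 (775 and 573 FPKM, -0.43), Vil1 (-0.40), Tspan8 (253 and 201 FPKM, -0.33) and Cdx2 (17.96 and 14.15 FPKM, -0.32). The list had a median of -0.11, with 10 of 15 below 0 and sums of 9505 and 8942 FPKM, and epithelial markers were thus abundant in both libraries. Stem and crypt base genes, by contrast with the differentiated lists, were mostly above 0 (9 of 11, median 0.10), but Lgr5, Olfm4 and Ascl2 were at or near 0 in both control libraries (0.05 and 0.11, 0.15 and 0.21, 0 and 0.05 FPKM).

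**Figure D5:**
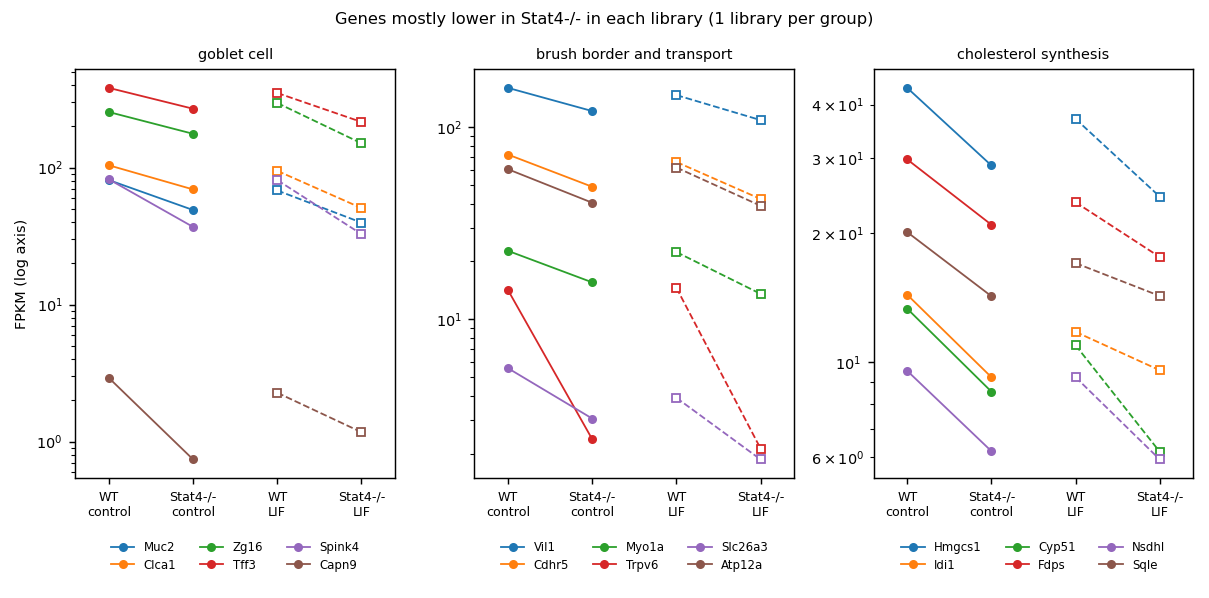
FPKM (log axis) of 18 goblet cell, brush border and transport, and cholesterol synthesis genes in each of the 4 libraries, wild type (WT) and Stat4-/- joined by solid lines for control and dashed lines for LIF; each point is 1 library. Each gene drawn, picked with values known, is lower in the Stat4-/- library of its pair, as Muc2 at 81.0 and 48.9 FPKM without LIF. The lists they come from also hold genes above 0 without LIF. These were 2 of 19 goblet cell, 2 of 17 brush border, 8 of 28 absorptive colonocyte and 1 of 25 cholesterol synthesis genes.

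Enteroendocrine genes were lower in the same way, with 13 of 15 below 0 and a median of -0.30 (-0.39 with LIF). Cck, the cholecystokinin gene, was at 37.2 and 17.9 FPKM without LIF and 41.3 and 18.9 FPKM with it, and Tac1, which encodes substance P, at 36.8 and 19.9 FPKM. Sct, the secretin gene, was at 9.10 and 5.47 FPKM. The pan-endocrine marker Chga was at 7.42 and 6.77 FPKM, Sst at 49.1 and 46.6 FPKM and Pyy at 41.2 and 41.3 FPKM, so the hormones were unequal in their difference. Cck and Tac1 are also made by neurons, and the enteric neuron and glia list had 9 of 13 genes below 0 (median -0.19). In the LIF pair all 13 were below 0 (median -0.13). Among the 7 with a mean of at least 5 FPKM, the median without LIF was 0.01. The part of neurons in these values was not tested.

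Genes of cholesterol synthesis formed the metabolic list with the lowest median. Without LIF, 24 of 25 were below 0 with a median of -0.30, and in the LIF pair 21 were below 0 with a median of -0.25. Hmgcs1, an early enzyme of the pathway, was at 43.8 and 28.8 FPKM without LIF and 37.0 and 24.4 FPKM with it. Idi1 (14.4 and 9.23 FPKM), Cyp51 (13.3 and 8.54 FPKM) and Nsdhl (9.55 and 6.20 FPKM) followed. Sqle, which makes the epoxide of squalene, was at 20.1 and 14.3 FPKM (17.05 and 14.29 with LIF), and the regulator Srebf2 at 37.6 and 30.96 FPKM. The size was modest throughout: 3 of 25 genes were 1.5-fold lower and 0 were 2-fold lower, beside 1.59% and 0.285% of all genes compared. Of all genes compared, 51.2% were below 0. Fatty acid synthesis, by comparison, had 6 of 11 below 0 and a median of -0.06.

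Some lists were slightly but evenly higher. Of 22 genes of the unfolded protein and integrated stress responses, 21 were above 0 (median 0.27; 0.28 with LIF). Sdf2l1, an endoplasmic reticulum cofactor, was at 38.9 and 62.7 FPKM and passed 1.5-fold, Hspa5, the main chaperone there, was at 1123 and 1368 FPKM, and the transcription factor gene Xbp1 at 80.0 and 82.2 FPKM. All 25 cytosolic ribosomal protein genes were above 0 with a median of 0.17 in each pair. Hspa1a and Hspa1b, near-identical heat shock genes, summed to 65.6 and 120 FPKM without LIF and 77.5 and 150 FPKM with it. Glycolysis and hypoxia genes were above 0 in 22 of 24 without LIF (median 0.12) but in 5 of 24 with it (median -0.08). Oxidative phosphorylation was level (15 of 26 above 0, median 0.02), as was the cell cycle list (8 of 22, median -0.05).

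Markers of other cells moved in part with genotype. Smooth muscle genes were above 0 in 10 of 13 (median 0.29), with list sums of 314 and 411 FPKM without LIF and 299 and 370 FPKM with it. Cnn1, a contractile regulator, was at 10.5 and 31.3 FPKM (13.1 and 26.5 with LIF) and Des, the muscle intermediate filament, at 11.7 and 24.7 FPKM (11.7 and 15.96), whereas Acta2 was at 41.6 and 32.6 FPKM. Endothelial genes were above 0 in 13 of 14 (median 0.21), with sums of 535 and 600 FPKM; Pecam1 was at 55.5 and 66.3 FPKM. Fibroblast and matrix genes were not higher (7 of 20 above 0, median -0.04; sums of 1166 and 1101 FPKM). Macrophage genes were mixed (7 of 16 above 0, median -0.01; sums of 187 and 201 FPKM), and Csf1r was at 3.33 and 2.45 FPKM. T and NK genes were low in both, with 7 of 18 listed genes reaching the mean of 1 FPKM. Their sums were 10.3 and 10.8 FPKM without LIF, with 3 of 7 above 0. With LIF the sums were 11.3 and 15.7 FPKM, with 5 of 7 above 0. Cd3e stood at 1.17 and 1.04 FPKM and Nkg7 at 0.46 and 0 FPKM. The part of these cells in the interferon-linked differences was not tested.

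Among B and plasma cell genes, Jchain, the joining chain of secreted antibodies, was at 25.6 and 4.64 FPKM without LIF and 24.98 and 3.50 FPKM with it. The rest of the list did not share that size: Cd79a was at 3.30 and 6.5 FPKM and Mzb1 at 3.26 and 2.62 FPKM. Of 11 compared, 7 were above 0 (median 0.22). At 1.5-fold, 3 were higher and 1 lower, beside 1.62% and 1.59% of all genes compared. In the LIF pair the median was 0.50. There, 4 of the 11 were 2-fold higher and 1 lower, beside 0.293% and 0.456% of all genes compared. Mast cell genes were lower in 5 of 6, with the protease gene Mcpt2 at 8.86 and 3.70 FPKM (10.6 and 6.13 with LIF) and Cpa3 at 2.69 and 1.41 FPKM. S100a8, a neutrophil calprotectin subunit, was at 1.34 and 3.87 FPKM without LIF and 3.07 and 3.44 FPKM with it, while its partner S100a9 was at 0.56 and 0.58 FPKM.

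Other genes among the 20 highest or lowest with a mean of at least 5 FPKM fell outside these groups. Ubd, a ubiquitin-like modifier induced by interferon gamma and tumor necrosis factor, was at 1.27 and 6.64 FPKM without LIF and 2.50 and 10.1 FPKM with it. Tnfrsf11a, the receptor RANK, was at 2.91 and 7.09 FPKM (3.19 and 6.87). Hpgd, which degrades prostaglandins, was at 14.8 and 6.30 FPKM (16.5 and 6.44), and Sult1b1, a sulfotransferase, at 9.73 and 3.90 FPKM (10.8 and 4.33). Sval1 was at 37.0 and 16.02 FPKM (38.2 and 16.4) and Dynap at 202 and 105 FPKM (195 and 87.1). In all of these both libraries of 1 genotype lay on the same side of both libraries of the other. Cd52 did not hold to genotype in this way: it was at 4.59 FPKM in wild-type control and 12.7 in Stat4-/- control, but at 13.1 FPKM in wild-type LIF and 17.2 in Stat4-/- LIF. Defa20, a defensin gene at 13.2 and 2.56 FPKM, was at 13.1 and 11.6 FPKM with LIF and shares 91.9% of its words; the sum of 17 listed Defa genes was 119 and 107 FPKM.

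The 2-fold rule cut through groups rather than between them. Just inside on the higher side were Il4i1 (1.02), Des (1.02) and Gstt1 (1.02), and just outside were Psmb8 (0.9996), Gbp3 (0.99) and Ppp1r14a (0.99). On the lower side Cck (-1.02), Tmem37 (-1.05) and Mcpt2 (-1.07) were just inside, and Ugt1a6b (-0.9965), Slc10a2 (-0.98) and Cartpt (-0.97) just outside.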

How the data were processed

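RNA from 4 libraries was measured, 1 per genotype and treatment. Per the labels, libraries were made from 1 ug of total RNA with a TruSeq RNA kit. Per the file headers, the authors' values are FPKM, written with 2 decimals in 1 column per group (0 columns unused). Duplicates are mentioned in the design text, and whether a column is 1 library or a pool is not stated. HISAT, Bowtie2 and mm10 are named in the submitters' processing notes. Their versions, the quantifying program and the annotation were not given in the sources used. Genes with a nonzero value in at least 1 library are listed, 26 symbols had been turned into dates, and 0 mitochondrial genes are listed.

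Differences were taken on log2(FPKM + 1) with a pseudocount of 1 FPKM, which understates low genes. No test was run. The members and the 59 gene lists were chosen with earlier results of these data known. Named genes were the STAT4 axis, the 20 highest and 20 lowest with a mean of at least 5 FPKM (no predicted genes, small RNAs or dates), of each list every member at 2-fold and up to 6 with the largest difference, and genes at 2-fold within 10 Mb of Stat4. Other members were named after their values were seen. Positions and 31-base words came from GENCODE M21, in which 99.3% of symbols compared matched once. Depth was estimated in 152 to 175 genes with 1 transcript of 300 to 1500 bases, where 58.9 to 68.5% of values fell within 0.15 of a whole fragment. Since the depth was picked to maximise this, it is approximate and the share is raised, and it covers counting error only. The scripts were tested on simulated data. Python 3.11.15, pandas 2.3.3, numpy 2.4.6 and matplotlib 3.10.9 were used. Some genes are not reported here.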

Additional observations from a re-analysis of the deposited data

Results flagged for a closer look

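Of the 74 genes at least 2-fold apart without LIF, 6 had a difference of at least 0.3 in the opposite direction in the LIF pair. The difference between the pairs was not tested, and each value below is a single library on each side. Tmem254c was higher in Stat4-/- without LIF (0.01 and 1.98 FPKM) and lower with it (9.23 and 2.19 FPKM), a LIF-pair difference of -1.68. It shares 100% of its words with other genes, and the sum of 3 Tmem254 genes was 11.2 and 10.6 FPKM without LIF and 9.2 and 10.5 FPKM with it. Il4i1 was at 0.45 and 1.94 FPKM, with a LIF-pair difference of -0.50, and shares 80.5% of its words. Hist2h3b was listed at 0 and 2.24 FPKM, with -0.33 in the LIF pair, and shares 80.6%. Rsc1a1, at 5.68 and 2.18 FPKM, had 0.30 in the LIF pair and shares 100% of its words. Gm3448 (1.19 FPKM and listed at 0) had 0.55 in the LIF pair and Krtap4-16 (4.17 and 0.94 FPKM) had 0.35; they share 30.2 and 1.9% of their words. All 6 genes had a mean under 5 FPKM.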

How the results depend on the processing

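The number of genes past 2-fold depended on the treatment of low values. With a pseudocount of 0.1 there were 88 higher and 90 lower without LIF and 87 and 118 in the LIF pair. With a mean of at least 5 FPKM there were 23 and 16, then 17 and 25. Without genes sharing over 50% of their 31-base words, 23 were lower without LIF. Fewer genes enter under the last 2 settings. Other counts moved by less than 1.5 times under the settings run (no filter, mean over the 2 control libraries, both scalings). Of 416 list medians recomputed, 404 kept their sign and 12 changed it, 9 of these from a size of at most 0.07 (STAT4 axis under 2 settings, TGF-beta and BMP, cell cycle, tight junction, interleukin-1 family, neutrophil, prostaglandin and small proline-rich lists). The other 3 reversed: OAS synthetases to -0.27 and enteric neuron and glia to 0.010 with a mean of at least 5 FPKM, and strain-variable genes to 0.19 without sharing genes, each with fewer genes in the list. Of the values of named genes, 2212 stayed within 0.1 and 91 moved further. The only change of sign was that of Jak2, from -0.01 to 0.00 with median-of-ratios scaling. No paired analysis was possible because each group has 1 library, and leaving one out would leave a side empty. Without replicates, depth limits only the counting error of each library.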

Other observations

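Genes of drug and steroid metabolism, grouped after their values were seen, were mostly lower in Stat4-/- without LIF. Of 46 compared in the Cyp1 to Cyp4, Ugt, Sult, Gst and Mgst families, 32 were below 0 (51.2% of all genes were), with a median of -0.20 (-0.15 in the LIF pair). At 1.5-fold, 8 were lower (Sult1b1, Ugt1a6b, Cyp2d34, Gsta1, Cyp2c55, Ugt2b34, Gsta4 and Mgst2), of which 7 were also 1.5-fold lower in the LIF pair, and 1, Gstt1, was higher, beside 1.59% lower and 1.62% higher of all genes. Cyp2d34 was at 42.2 and 21.5 FPKM without LIF and 42.2 and 19.2 FPKM with it. The iron exporter gene Slc40a1 was at 14.1 and 7.73 FPKM (15.2 and 6.94 with LIF), and Heph, the ferroxidase that works beside it, at 11.9 and 6.32 FPKM (10.1 and 6.03). Slc40a1 lies on chromosome 1 from 45908068, within 10 Mb of Stat4.

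Several low cytokine and immune genes outside the lists, also named after their values were seen, were 2-fold higher in Stat4-/- without LIF. Il22, an inducer of epithelial defence genes, was at 1.52 and 7 FPKM (1.70 and 4.68 with LIF) and shares 53.6% of its words with another gene. Csf2 was at 0.72 and 3.18 FPKM (1.62 and 3.96), and Ido1, an interferon-induced tryptophan-degrading enzyme, at 0.68 and 2.67 FPKM (0.95 and 2.28). Madcam1, an adhesion molecule for gut-homing lymphocytes, was at 2.36 and 5.94 FPKM (2.44 and 5.00). All 4 have means under 5 FPKM.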
